A study of Mus musculus with 5 samples.

Results

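Endothelial marker genes and adhesion molecules were examined in thymus RNA of mice without ZAS3, set against thymus RNA of wild-type mice. The 10 genes were chosen by symbol from 16504 named genes: Pecam1, Cdh5, Kdr, Flt1, Tek, Tie1, Vwf, Eng, Icam1 and Vcam1. All 10 were on the array, Vwf with 2 probes and each of the others with 1. In the ratios as deposited, Icam1 passed an adjusted p of 0.05 with positive values and Vcam1 with negative ones. Once the trend of the ratios across the slide was subtracted, 0 of the 10 passed. Over all named genes, 24.8% passed as deposited and 2.91% after that subtraction.

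ZAS3, the product of Hivep3, is a zinc finger factor of kappaB-like DNA sites and modulates transcription by NF-kB and AP-1. Each of 5 arrays carried RNA of a ZAS3-null mouse in one colour and RNA of a wild-type littermate in the other. The littermates were of the same sex and were 6 to 8 weeks old. The sample labels name whole thymus and the series text thymocytes, and strain and deleted part of the gene are not given in the sources used here. The control on every array was the wild type, with no treatment named, and no array set 2 samples of the same genotype against each other.

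The values are log2 ratios of the 2 channels, so a value of 1 is a doubling and 0 means equal signal. Which genotype a positive value favours is not certain, because the sample labels put the ZAS3-null RNA in Cy5 and the series text puts it in Cy3. Titles and channels both name the ZAS3-null genotype first, by which a positive ratio would be more RNA in the ZAS3-null thymus. This reading rests on the order of names alone, and results are given as positive or negative. The dyes were not swapped, so dye and genotype cannot be told apart. Spot brightness was not part of the values, so neither the level of a gene nor the presence of endothelial cells could be checked, and the number of arrays limits the precision. In such bulk RNA, fewer cells of a type and less RNA per cell cannot be told apart.

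Endothelial cells line blood vessels. In the thymus they form the vessels through which progenitors enter and mature T cells leave. VEGF receptors and the TIE receptors on their surface receive growth and stability signals, VE-cadherin and PECAM1 hold neighbouring cells together, and ICAM1 and VCAM1 are bound by integrins of passing leukocytes. Inflammatory signals raise Icam1 and Vcam1 transcription through NF-kB, and both are also made by epithelial and other stromal cells.

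Facts of the whole series touch every value below. The log2 ratios rose across the slide, with array medians between -0.25 and -0.11 in the first 10 columns and between 0.23 and 0.31 in the last 10. Gene names rest on an order of spots recovered from the data, which exchanges rows and columns of the deposited numbering. Results for the 10 genes are therefore given as deposited and again after subtraction of the median of the surrounding 21 by 21 spots, called corrected here, and those for other genes mainly as corrected. The targeted gene Hivep3 had a mean of 0.08 ± 0.07 (SD, n = 5; limma adjusted p = 0.37) as deposited and 0.17 ± 0.09 (0.141) corrected. Its corrected ratios were 0.15, 0.30, 0.06, 0.19 and 0.16 on arrays 1 to 5. If positive meant more RNA in the ZAS3-null thymus, lost Hivep3 RNA would give negative ratios. Neither mean passed, so the direction was not settled. Across named genes the corrected ratios correlated between 0.07 for arrays 1 and 2 and 0.62 for arrays 1 and 5. Array 2 had the widest spread over named genes, with an SD of 0.464 corrected against 0.227 to 0.325 on the other arrays.

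As deposited, Icam1 was positive and Vcam1 negative past the threshold, which is 2 of 10 genes, where 24.8% of all named genes passed in either direction. Separately, 12.0% of named genes passed as positive and 12.9% as negative. At an unadjusted limma p under 0.05 there were 6 of 10, against 40.3% of named genes. All 5 arrays had the same sign for 6 of 10, against 37.2%. Corrected, 0 of 10 passed the adjusted limma p, where 2.91% of named genes did, 0.612% as positive and 2.30% as negative. That share falls to 0.0303% when 256 very low unnamed spots are left out of the fit. At an unadjusted p under 0.05 there were 3 corrected, namely Cdh5, Eng and Vcam1, against 27.0% of named genes. With limma on arrays scaled to a common spread 1 of the 10 passed after correction, where 6.31% of named genes did. With array weights 2 did, where 17.6% of named genes passed. The median over the 10 means was -0.11 as deposited and -0.08 corrected, beside -0.03 and -0.01 over all named genes. In the ratios as deposited, 0 of 10 reached 1.5-fold on at least 4 of 5 arrays, the rule of the series text, which 0.866% of named genes met. Corrected, 0 of 10 met it, against 0.242%.

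**Figure D1:**
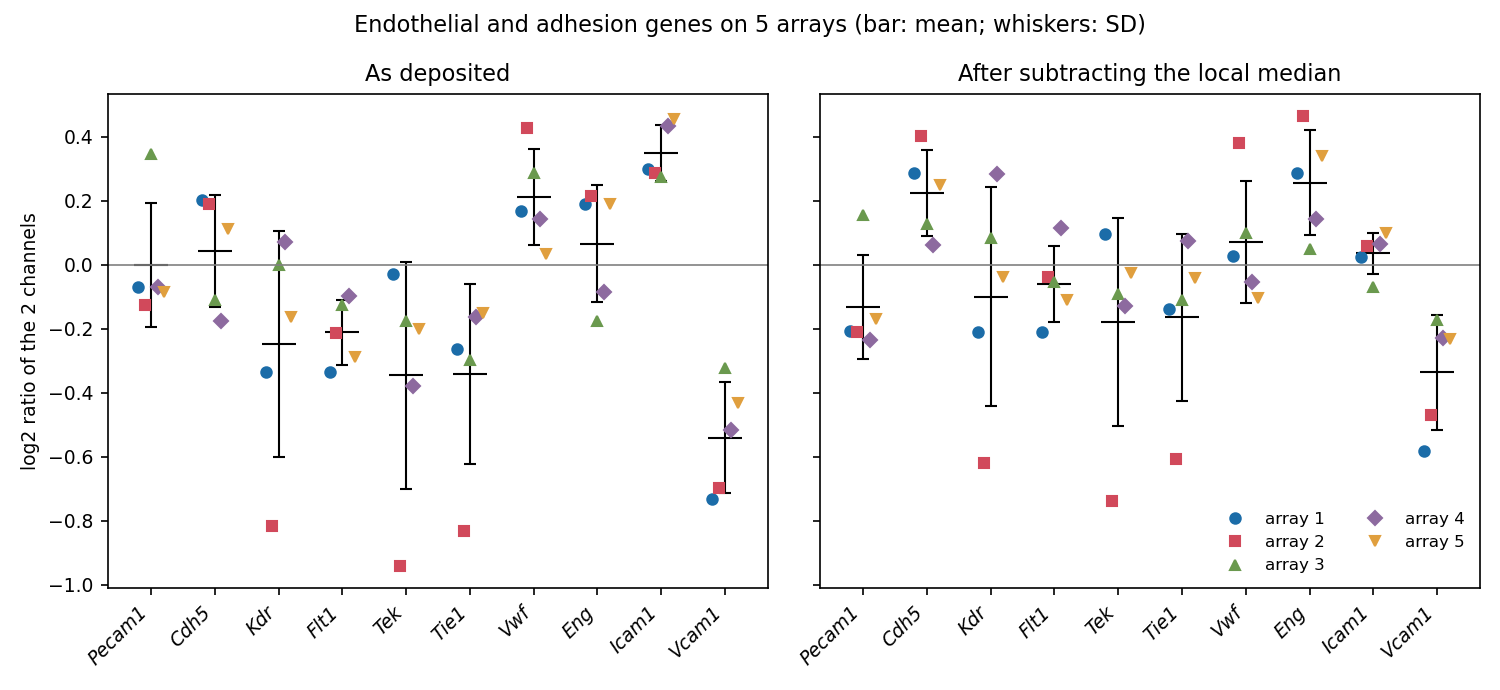
Log2 ratio of each gene (y axis) on each of 5 arrays (coloured symbols), as deposited on the left and with the local median subtracted on the right; black bars are means and whiskers SD over 5 arrays. Icam1 lies above 0 and Vcam1 below 0 on all arrays on the left, while on the right Icam1 lies between -0.07 and 0.10, and Kdr, Tek and Tie1 are lowest on array 2.

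The position of a probe on the slide and its ratio as deposited went together. Over the 11 probes the mean as deposited and the slide column had a Pearson correlation of 0.93 and a Spearman correlation of 0.90, given as a description of probes that share the slide and its trend. Corrected, these were 0.48 and 0.58. Vcam1, Tek, Flt1, Kdr and Tie1 lay in columns 9, 12, 19, 21 and 27 and had negative means. The Vwf probe in column 98 and Icam1 in column 101 had the highest means. Eng in column 46 and Cdh5 in column 51 lay in an area where the local median was below 0, at -0.19 and -0.18, so that their corrected means are higher than the deposited ones. For Pecam1 in column 67 the local median was 0.13, and its mean went from 0.00 as deposited to -0.13 corrected.

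**Figure D2:**
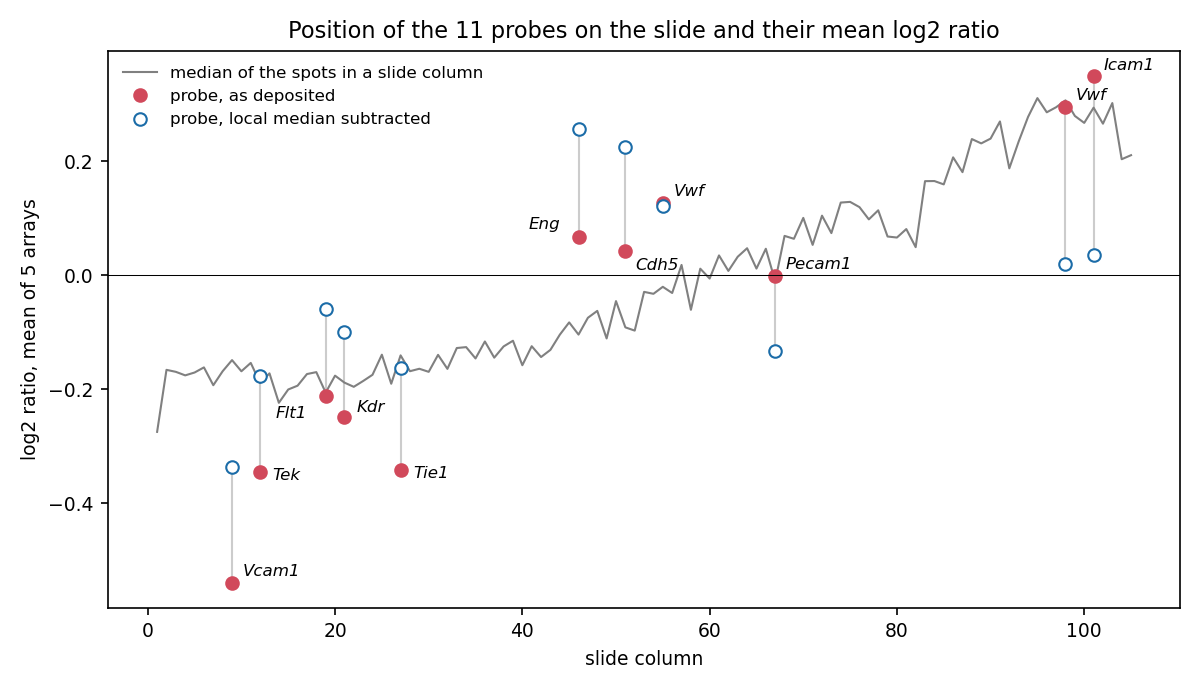
Mean log2 ratio over 5 arrays (y axis) against slide column (x axis) for the 11 probes, as deposited (filled) and with the local median subtracted (open), with the median of all spots of a column as a grey line. Vcam1, Tek, Flt1, Kdr and Tie1, with negative deposited means, lie on the left, and Vcam1, Tek and Tie1 are well below the grey line. Icam1 and a Vwf probe lie near it on the right. Pecam1 in column 67 moves from 0.00 to -0.13. Icam1 moves from 0.35 to 0.04.

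Pecam1 and Cdh5 encode molecules of the contacts between endothelial cells. Pecam1 (CD31) is an immunoglobulin family protein that is also made by platelets and leukocytes. Its ratios on arrays 1 to 5 were -0.07, -0.12, 0.34, -0.07 and -0.08. Only array 3 was positive. The mean was 0.00 ± 0.19 (limma adjusted p = 0.995). Corrected, the values were -0.21, -0.21, 0.16, -0.23 and -0.17, with a mean of -0.13 ± 0.16 (limma adjusted p = 0.307). Pecam1 was thus negative on 4 of 5 arrays before and after correction, and it did not differ from 0 beyond the spread between arrays. Without array 3 the corrected mean was -0.20, with an adjusted p of 0.134.

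Cdh5 encodes VE-cadherin, the cadherin of endothelial adherens junctions and a marker of these cells. As deposited its ratios were 0.20, 0.19, -0.11, -0.18 and 0.11 on arrays 1 to 5, which fall on both sides of 0, with a mean of 0.04 ± 0.18 (limma adjusted p = 0.719). Corrected they were 0.29, 0.40, 0.13, 0.06 and 0.25. All were above 0, but the mean of 0.23 ± 0.13 (1.17-fold; 95% interval 0.06 to 0.40) did not pass (adjusted p = 0.109). Over all named genes, 26.1% had the same sign on 5 of 5 arrays after correction. A correction by 5 by 5 spots, chosen after seeing the data, gave 0.26 (adjusted p = 0.0735).

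Eng encodes endoglin, a co-receptor for BMP and TGF-beta ligands that is abundant on endothelium. Its ratios as deposited were 0.19, 0.21, -0.18, -0.08 and 0.19, with a mean of 0.07 ± 0.18 (limma adjusted p = 0.582). Corrected they were 0.29, 0.47, 0.05, 0.14 and 0.34. The corrected mean was 0.26 ± 0.16 (1.19-fold; 95% interval 0.07 to 0.44; adjusted p = 0.102), with all 5 arrays positive and the threshold not passed. With array weights, which gave array 5 the most weight, its corrected mean was 0.24 and it passed (adjusted p = 0.0463). Eng and Cdh5 had the most alike corrected profiles of all pairs among the 11 probes, with a root mean square difference of 0.07 over 5 arrays. Their spots also lay close together, 9 rows and 5 columns apart, and the part of this in the likeness was not tested. With local medians of 5 by 5 spots, chosen after seeing the data, Eng had a mean of 0.24 and Cdh5 0.26. These means do not test the likeness of the profiles.

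Kdr and Flt1 encode VEGF receptors 2 and 1. KDR carries most of the growth signal of VEGFA, and FLT1 binds the same ligand with high affinity and largely acts as a decoy. Kdr had ratios of -0.33, -0.82, 0.00, 0.07 and -0.16 on arrays 1 to 5 as deposited. Array 2 was the lowest and arrays 3 and 4 were not below 0. The mean was -0.25 ± 0.35 (limma adjusted p = 0.216) as deposited and -0.10 ± 0.34 (0.634) corrected. The corrected mean of Kdr was 0.03 without array 2, so its sign rested on that array.

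Flt1 was more even, with -0.33, -0.21, -0.12, -0.10 and -0.29 as deposited. All 5 arrays were negative, and the mean of -0.21 ± 0.10 lay just short of the threshold (limma adjusted p = 0.0551). The surrounding spots had a median of -0.15. Corrected, Flt1 had -0.21, -0.04, -0.05, 0.12 and -0.11, with a mean of -0.06 ± 0.12 (adjusted p = 0.591). Its corrected 95% interval, -0.22 to 0.10, corresponds to folds from 0.858 to 1.07.

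Tek (TIE2) and Tie1 encode the TIE receptor tyrosine kinases. TEK is the receptor of the angiopoietins, and TIE1 forms complexes with it and modulates its signal. Tek had -0.03, -0.94, -0.18, -0.38 and -0.20 on arrays 1 to 5 as deposited, and Tie1 had -0.26, -0.83, -0.30, -0.16 and -0.15. Both genes were negative on 5 of 5 arrays and lowest on array 2. Neither mean passed as deposited, with -0.35 ± 0.36 for Tek (limma adjusted p = 0.108) and -0.34 ± 0.28 for Tie1 (0.0684). The deposited mean of Tie1 passed without array 2 (-0.22; adjusted p = 0.048) and with the arrays scaled to a common spread (0.0413).

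Corrected, array 2 held -0.74 for Tek and -0.61 for Tie1. The other arrays ranged from -0.13 to 0.10 for Tek and from -0.14 to 0.08 for Tie1, around 0. The corrected means were -0.18 ± 0.33 (limma adjusted p = 0.383) and -0.16 ± 0.26 (0.343). Without array 2 they were -0.04 and -0.05.

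Vwf encodes von Willebrand factor, the protein that endothelial cells and megakaryocytes store and release to tether platelets. The mean of its 2 probes was 0.17, 0.43, 0.29, 0.14 and 0.03 on arrays 1 to 5 as deposited. All arrays were positive, and the mean of 0.21 ± 0.15 did not pass (limma adjusted p = 0.0832). The probes lay in columns 98 and 55 and had means of 0.30 and 0.13, and the first of them passed when fitted alone (adjusted p = 0.0477). Corrected they had 0.02 and 0.12, and the gene had 0.07 ± 0.19 (adjusted p = 0.608). Array 2 was the highest for Vwf in both forms, and without it the corrected mean was -0.01.

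Icam1 encodes the immunoglobulin family ligand of the integrin LFA-1. Its ratios as deposited were 0.30, 0.29, 0.28, 0.43 and 0.45 on arrays 1 to 5. All 5 were positive and they spread less than those of the other 9 genes, with a mean of 0.35 ± 0.09 (1.27-fold; limma adjusted p = 0.0123). The call was lost without array 4 (adjusted p = 0.0529) or array 5 (0.0622). Of 252 other genes within the surrounding 21 by 21 spots, 43.3% were also called positive and 0% negative, and the local median was 0.31. Corrected, Icam1 had 0.02, 0.06, -0.07, 0.07 and 0.10. The corrected mean of 0.04 ± 0.06 did not differ from 0 (adjusted p = 0.71), and its 95% interval of -0.10 to 0.18 corresponds to folds from 0.93 to 1.13.

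Promoter sequences are shown for Icam1, a known NF-kB target, and for Eng, because a kappaB-like match was found there. They come from RefSeq on build GRCm38.p6, and the promoter sequences at hand covered 6 of the 10 genes: Kdr, Flt1, Tek, Tie1, Eng and Icam1. The promoters of Pecam1, Cdh5, Vwf and Vcam1 were therefore not searched. Each runs from 250 bases before to 50 after the annotated start, and capitals mark matches on either strand to the kappaB-like motif GGNNNTTCC.
Icam1 promoter, chr9:21015690-21015989, plus strand: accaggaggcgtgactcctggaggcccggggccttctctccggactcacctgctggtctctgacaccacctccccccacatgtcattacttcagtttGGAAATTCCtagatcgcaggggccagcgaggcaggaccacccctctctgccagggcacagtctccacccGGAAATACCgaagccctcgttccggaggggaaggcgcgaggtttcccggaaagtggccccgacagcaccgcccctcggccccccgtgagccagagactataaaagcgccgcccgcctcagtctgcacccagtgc
Eng promoter, chr2:32646345-32646644, plus strand: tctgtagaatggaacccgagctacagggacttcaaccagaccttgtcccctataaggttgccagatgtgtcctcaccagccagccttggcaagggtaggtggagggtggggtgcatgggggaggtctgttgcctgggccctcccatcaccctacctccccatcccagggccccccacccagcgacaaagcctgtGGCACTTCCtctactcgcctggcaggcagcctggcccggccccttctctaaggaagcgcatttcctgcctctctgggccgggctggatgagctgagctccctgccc
The Icam1 window held 2 matches, GGAAATTCC from base -153 and GGAAATACC on the other strand from base -84 of the annotated start. The Eng window held GGCACTTCC from base -56, where it overlaps a match to the ETS motif AGGAAG on the other strand from base -52. In 32851 promoters of the same length, 18.5% held the kappaB-like motif and 35.4% the ETS motif. The TATA motif TATAAA, found in 13.6% of promoters, began at base 14 counted from the annotated start of Icam1 and at base -31 from that of Flt1. The ETS motif, bound by factors that many endothelial genes use, was at 2 places each in the Eng (the other from base -6), Flt1 and Tie1 windows. These matches describe the letters and are no evidence of binding.

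Vcam1 encodes the ligand of the integrin VLA-4 and had the most negative mean of the 10 genes, both before and after correction. As deposited its ratios were -0.73, -0.70, -0.32, -0.52 and -0.43 on arrays 1 to 5. All arrays were negative, lowest on arrays 1 and 2. The mean of -0.54 ± 0.17 (1.45-fold; 95% interval -0.73 to -0.35) passed the threshold (limma adjusted p = 0.0087), and it did so with each array left out (adjusted p up to 0.0426). Of 322 other genes in the surrounding 21 by 21 spots, 29.8% were called negative and 0% positive, with a local median of -0.20.

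Corrected, Vcam1 had -0.58, -0.47, -0.17, -0.23 and -0.23. All 5 arrays stayed below 0, with a mean of -0.34 ± 0.18 (1.26-fold; 95% interval -0.53 to -0.14) that did not pass (limma adjusted p = 0.0678). Over the alternatives to the correction and the fit that keep the same order of spots, its corrected mean lay between -0.40 and -0.28 and its adjusted p between 0.0362 and 0.215. It passed with array weights (0.0362) and with arrays scaled to a common spread (0.0418). Icam1 and Vcam1 thus differed in sign on every array as deposited, at opposite ends of the slide. Corrected, Vcam1 was still below Icam1 on each array.

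Single arrays carried much of the spread among the receptors. On array 2, 3 of 10 corrected values were at or below -0.6, those of Kdr, Tek and Tie1, where 8.96% of named genes lay there. This limit was chosen after the values were seen. On the same array Cdh5, Vwf and Eng had their highest corrected values, so array 2 held the highest or lowest value of 6 of the 10 genes. It did so for 61.5% of all named genes. The endothelial genes therefore did not move together on array 2.

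Genes that act with the 10 were read from 8 lists with 84 measured genes of 87. As deposited 11 were positive and 5 negative past the threshold, a share of 19.0%, against 24.8% of all named genes. After correction 0 were positive and 1 negative, which is Itgb1, where 2.91% of named genes passed. An unadjusted limma p under 0.05 after correction was found for 17 of the 84, against 27.0% of named genes. The same shares of named genes stand beside the counts of the single lists below. The corrected median of the 84 genes was 0.02, beside -0.01 for all named genes.

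**Figure D3:**
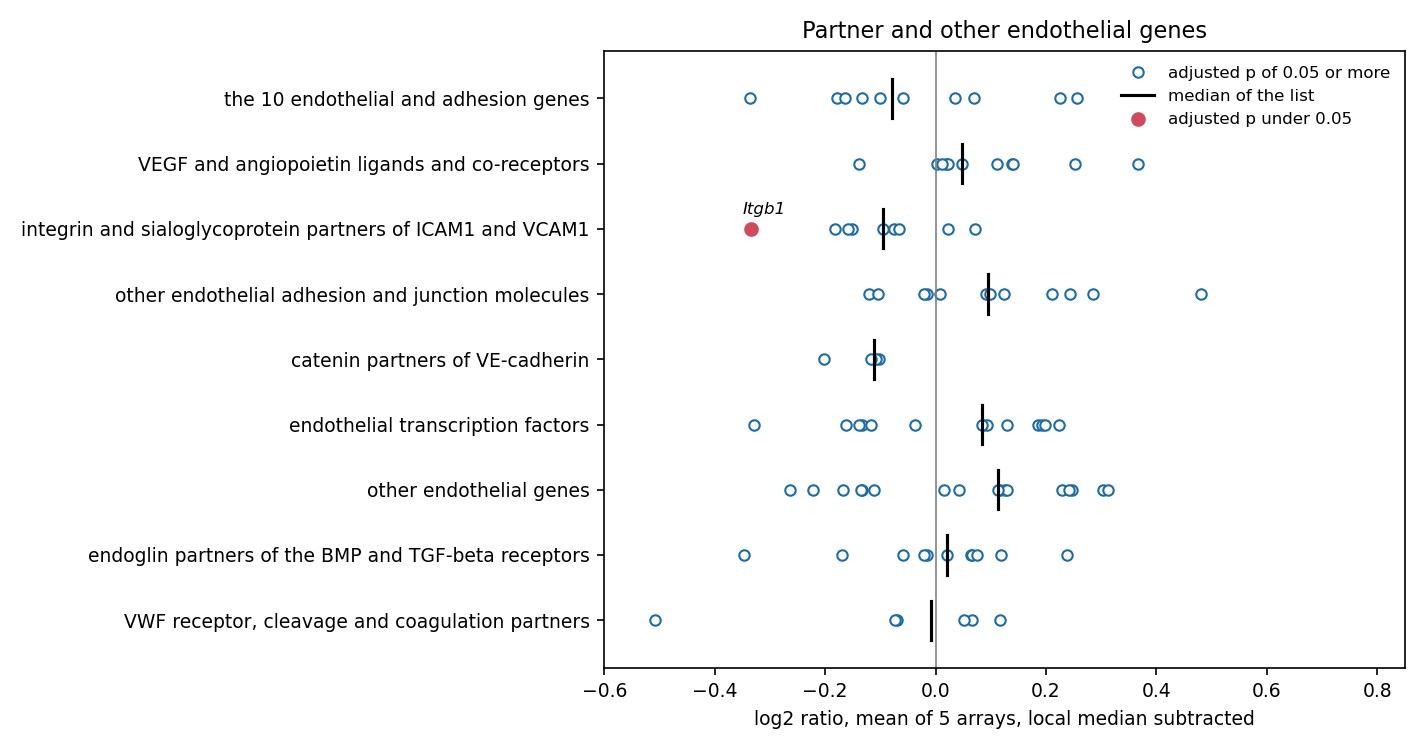
Corrected mean log2 ratio over 5 arrays (x axis) for the 10 genes and for each list of partner and other endothelial genes, with 1 point per gene and a black bar at the median of the list. Filled points passed an adjusted p of 0.05, and the only one is Itgb1 at -0.33.

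Among 9 measured integrin and sialoglycoprotein partners of ICAM1 and VCAM1, the deposited ratios called 1 positive and 2 negative, and the corrected ones 0 and 1. Itgb1, the beta chain of VLA-4 and of many other integrins, had corrected ratios of -0.45, -0.26, -0.22, -0.32 and -0.41. All arrays were negative, with a mean of -0.33 ± 0.10 (limma adjusted p = 0.0426) after -0.38 ± 0.09 (0.0105) as deposited. Leaving out array 1, 3, 4 or 5 ended the corrected call (highest adjusted p 0.201), and so did fitting column and row medians in place of the local median (0.0521) or leaving out the very low spots (0.0639). As deposited it was lost without array 5 (0.057). Itga4, the alpha chain of VLA-4, had a corrected mean of 0.02 ± 0.32 (adjusted p = 0.914). The LFA-1 chains Itgal and Itgb2 had corrected means of -0.15 ± 0.15 and -0.16 ± 0.25, and neither passed. The median of the list was -0.10.

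Ligands and co-receptors of the VEGF and angiopoietin system gave 1 positive and 0 negative call of 11 as deposited and 0 corrected. Pgf, a ligand of FLT1, had the highest corrected mean, 0.37 ± 0.30 (limma adjusted p = 0.11; 0.24 as deposited), -0.12 on array 2 and between 0.29 and 0.61 elsewhere. Flt4, the VEGF receptor of lymphatic vessels, had 0.25 ± 0.46 (0.358; 0.24 as deposited), again with a negative value on array 2. Vegfa, the main ligand of KDR, had 0.14 ± 0.33 (0.494), and the angiopoietin genes Angpt1 and Angpt2 had 0.11 ± 0.12 and 0.14 ± 0.12. The list median was 0.05.

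Other adhesion and junction molecules of endothelium gave 2 positive and 1 negative call of 12 as deposited and 0 corrected, with 3 at an unadjusted limma p under 0.05. Esam, an endothelial adhesion molecule of tight junctions, had the highest corrected mean, 0.48 ± 0.39 (limma adjusted p = 0.0993), after 0.26 as deposited. It was 0.07, 1.03, 0.16, 0.62 and 0.53 on arrays 1 to 5, positive on all of them. Cldn5, the claudin of endothelial tight junctions, had 0.28 ± 0.28 (0.16), after 0.16 as deposited. The list median was 0.10. The 4 catenins that anchor VE-cadherin gave 0 calls in either form, with 0 at an unadjusted limma p under 0.05 after correction. Their corrected means lay between -0.20 for Ctnnb1 (0.302) and -0.10 for Ctnna1, with Jup at -0.12 (0.39).

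Of 17 further endothelial genes 3 were positive and 0 negative as deposited, and 0 passed after correction, when 6 had an unadjusted limma p under 0.05. Plvap, which forms the diaphragms of fenestrated vessels, had a deposited mean of 0.48 ± 0.21 (limma adjusted p = 0.0144) and a corrected one of 0.30 ± 0.21 (0.0982), positive on 5 of 5 arrays both times. Emcn, an endothelial sialomucin of veins and capillaries, had a corrected mean of 0.31 ± 0.53 (0.322), with 1.09 on array 4 and -0.18 on array 2. The list median was 0.11. Of 14 endothelial transcription factors 2 were positive and 1 negative as deposited and 0 corrected, with 4 at an unadjusted p under 0.05 and a median of 0.08. Klf2, a flow-responsive factor that T cells also use, had a corrected mean of -0.33 ± 0.15 (0.0607). As deposited it had -0.04 ± 0.17 (0.747), with 2 arrays positive and 3 negative. Tal1 had 0.22 ± 0.16 (0.129) corrected and 0.16 as deposited.

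Of 11 receptors, ligands and effectors that work with endoglin, 0 were positive and 1 negative as deposited and 0 passed after correction, with 2 at an unadjusted limma p under 0.05 and a median of 0.02. Tgfbr2, the type II TGF-beta receptor, had -0.38 ± 0.18 as deposited (limma adjusted p = 0.0219) and -0.35 ± 0.15 corrected (0.0559), negative on 5 of 5 arrays. Bmp10, a ligand of the endoglin complex, had 0.24 ± 0.25 (0.187). Of 6 measured genes for the platelet receptor and the coagulation partners of VWF, 2 were positive and 0 negative as deposited and 0 corrected, with 0 at an unadjusted p under 0.05. Gp1bb, a chain of that receptor, had -0.51 ± 0.62 (0.192) corrected and -0.76 ± 0.64 (0.0543) as deposited. Gp5, which associates with that receptor, had 0.12 ± 0.13 (0.315) corrected and 0.37 ± 0.14 (0.0167) as deposited. The median was -0.01.

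Markers of other cell types that share these genes were read beside them. Corrected medians were 0.06 for 4 lymphatic endothelial genes, 0.03 for 8 of pericytes and smooth muscle, 0.07 for 5 of platelets and megakaryocytes, 0.23 for 3 erythroid genes, 0.09 for 3 of macrophages, 0.10 for 6 of thymic epithelium, 0.09 for 6 of fibroblasts, 0.21 for 5 of fat cells and -0.19 for 7 of thymocytes. As deposited, 2 pericyte, 2 platelet, 1 macrophage, 1 epithelial, 1 fibroblast and 2 thymocyte genes were positive and 3 thymocyte genes negative past the threshold. Of the lymphatic, erythroid and fat genes 0 passed, and over all named genes 24.8% did. After correction 1 passed with limma, where 2.91% of named genes did. It was the thymic epithelial factor Foxn1 at 0.56 ± 0.16 (limma adjusted p = 0.0135). Its corrected call ended when array 1, 4 or 5 was left out (highest adjusted p 0.075) or when the 256 very low spots were (0.0619). By corrected mean, the members of the other lists farthest from 0 were Flt4 and Lyve1 (-0.20 ± 0.54), Cspg4 (0.22 ± 0.19) and Acta2 (-0.23 ± 0.42), Pf4 (0.28 ± 0.15) and Gp5, Slc4a1 (0.37 ± 0.36) and Hba-a1 (0.23 ± 1.15), and Adgre1 (0.14 ± 0.13) and Mertk (-0.12 ± 0.12). For fibroblasts they were Col1a2 (-0.32 ± 0.39) and Lum (0.16 ± 0.36), for fat Ucp1 (0.30 ± 0.93) and Adipoq (0.25 ± 0.26), and for thymocytes Rag1 (-0.61 ± 0.41) and Cd8a (-0.33 ± 0.27), none of which passed after correction. Lyve1 had -1.04 on array 2 and -0.38 to 0.32 on the other arrays, and Acta2 had -0.80 on array 1 and -0.43 to 0.30 elsewhere. Rag1 (-0.81) and Cd8a (-0.50) passed as deposited (limma adjusted p = 0.0122 and 0.0155). The thymocyte genes Ptcra and Cd3e had positive means, past the threshold as deposited at 0.35 (limma adjusted p = 0.0138) and 0.40 (0.0068). Corrected, Ptcra had 0.33 (0.0628) and Cd3e 0.13 (0.221), both positive on 5 of 5 arrays. Hba-a1, a globin gene that marks blood in the tissue, had a corrected ratio of 2.18 on array 2 and -0.75 to 0.25 on the other arrays. Array 2 was also the array on which Kdr, Tek and Tie1 were lowest, and the part of blood content in their values was not tested. The fat gene Ucp1 had 1.32 and 1.18 on arrays 4 and 5 and -0.80 to 0.16 on the others, and its part was likewise not tested.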

How the data were processed

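Thymus RNA was measured on 2-colour Agilent mouse arrays. The values were deposited as log2 ratios of both channels, lowess-normalised within each array by the authors in GeneTraffic 2.6 after GenePix image reading, per the labels' series text. Dim spots were left out of that normalisation but have values, and 0 of 112875 values were missing. Aligner and build do not apply, and the log base was read from the values: 100% were the log2 of a fold with 2 decimals within 6e-05.

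Annotation numbers were mapped to spots by exchanging rows and columns of the slide grid. In that order 256 of 256 spots that were under -1.5 on all arrays had no annotated gene, against 41 in the deposited order. Probes of a gene were averaged (18218 probes with 1 gene, 16 with several, 4341 with none), giving 20861 features. Each was tested against 0 with intercept-only limma 3.58.1 in R 4.3.3, and p-values were adjusted by Benjamini-Hochberg over all features. For corrected ratios the median of the 21 by 21 spots around a spot, without the very low ones and fewer at slide edges, was subtracted on each array. Alternatives were other windows, column and row medians, centring, scaling, robust fits, array weights, single probes, deposited numbers, other thresholds and each array left out. Percentages of named genes are over 16504. Steps were tested on simulated data. Arrays name separate mice, so p-values measure spread between mouse pairs with technical spread. Members, lists and tests were chosen with earlier results of these data known. All 10 genes were named. From each list up to 3 genes past the corrected threshold were named, or else the 2 with the largest corrected means in size. A few partner chains and ligands (Itga4, Itgal, Itgb2, Vegfa, Angpt1, Angpt2, Ctnna1) and the thymocyte genes Ptcra and Cd3e were named after their values were seen.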

Additional observations from a re-analysis of the deposited data

Results flagged for a closer look

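In the 20 sets of 5 values (10 genes, as deposited and corrected), 4 values lay far from the other 4 by Dixon's criterion (gap over range above 0.71). The sets hold the same 10 genes in both forms and are not independent, and Pecam1 was flagged in both. The criterion takes values of equal spread, which these arrays did not have, and the share over all named genes was not determined. The count is therefore not read as more than chance. Array 2 held the highest or lowest corrected value of 61.5% of all named genes. Pecam1 on array 3 was 0.34 as deposited, against -0.12 to -0.07 on the other arrays, and 0.16 corrected, against -0.23 to -0.17. Tie1 on array 2 was -0.83 as deposited, against -0.30 to -0.15. Tek on array 2 was -0.74 corrected, against -0.13 to 0.10.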

How the results depend on the processing

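Past the threshold were 2 of the 10 genes as deposited, and between 1 and 3 with 1 array left out: 1 without array 4 or 5, where Icam1 was lost, and 3 without array 2, where Tie1 was added. An adjusted p of 0.01 gave 1, one of 0.10 gave 5, and names by deposited numbers, which put other spots under these names, gave 1. Of all named genes, 24.8% passed as deposited, 8.17% without array 4, 4.45% without array 5, 28.9% without array 2, 4.85% at 0.01, 36.2% at 0.10 and 23.9% by deposited numbers. After correction the count was 0, and 0 to 0 with 1 array left out. It was 1 with arrays scaled to a common spread, 2 with array weights, 1 at an adjusted p of 0.10 and 1 with deposited numbers, settings in which 6.31%, 17.6%, 13.0% and 3.79% of all named genes passed, against 2.91%; the calls over all genes with array weights numbered 2899 in place of 481. None of the 10 genes met the 1.5-fold rule in any setting run. With 1 array left out the rule was at least 3 of the remaining 4 arrays, and the count was 0 to 0. Signs changed as follows, and where no array was left out the cause was not tested. Pecam1 as deposited, with a main mean of 0.00, had 0.012 with scaled arrays, 0.019 with median centring, and -0.087 (without array 3) to 0.030 (without array 2) with 1 array left out. Corrected, leaving out 1 array gave Kdr -0.196 to 0.030 and Vwf -0.0072 to 0.114, each with its sign turned without array 2. Vwf had -0.011 with array weights, and Icam1 -0.0072 with 5 by 5 spots and -0.011 with column and row medians. Deposited numbers turned the deposited means of Pecam1 (0.28), Kdr (0.047), Tek (0.19), Vwf (-0.33), Eng (-1.57) and Icam1 (-0.10), and the corrected ones of Pecam1 (0.060), Kdr (0.055), Vwf (-0.35), Eng (-1.73) and Icam1 (-0.054). Of all comparisons of single genes under the exchanged order, 99 of 111 as deposited and 143 of 151 corrected kept their sign and their side of the threshold. Part of this was fixed in advance. Robust fits and leaving out the very low spots cannot change these means, nor can single probes for genes with 1 probe. Median centring of the corrected ratios gave the same values as the main fit. Without the 256 very low spots, the corrected calls over all named genes numbered 5 in place of 481, which is 0.0303% in place of 2.91%, since fewer strong results entered the adjustment. With single arrays left out, all-gene corrected calls ranged from 23 (array 5) to 1152 (array 2), and were 57 (array 1), 107 (array 3) and 28 (array 4). The test was already a paired one, because each array is the ratio of a littermate pair, and there is 1 group.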
